A study of Mus musculus with 244 samples.

Results

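Single macrophages from the aortic arch of atherosclerotic mice were compared within the baseline condition, between libraries numbered 21 to 92 and libraries numbered 112 to 167. Both stretches of numbers carry the same label, macrophage at baseline, and are separated only by a run of regression libraries (93 to 111). They hold 128 of the 244 libraries of the study. Libraries 57 and 58, 64 and 65, and 70 and 71 were near copies (Pearson r of log2 values 0.992 to 0.997, against at most 0.654 for any other baseline pair) and each pair was averaged. This left 69 cells in the first stretch and 56 in the second, 125 of the 241 cells of the study.

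All 125 cells came from donor mice that lack Apoe, the gene of apolipoprotein E, which carries remnant lipoproteins to the liver, and that ate a high-fat diet for 16 weeks. In the regression group, used below only as a yardstick, arches of the same kind of donor had been transplanted to wild-type recipients fed chow and were collected 3 days later. The sort kept cells positive for CD45, CD11b and F4/80, which were then isolated singly on a microfluidic C1 chip, and each library holds 1 cell, amplified as cDNA without molecular identifiers. The labels name no animal, no age, no sex and no chip, so the number of mice behind a stretch, and whether a stretch was a capture run, are unknown here. The 1 protocol text speaks of islet cells, while every other label says macrophage and aortic arch. Each stretch therefore counts as 1 sample: no value below could be checked against a replicate or given a p-value, and a difference between animals and a difference between capture runs cannot be told apart.

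Macrophages in plaque take up modified lipoproteins through receptors such as CD36 and can become foam cells, which hold lipid droplets and express genes such as Spp1, Lpl and Trem2. They also present antigen on MHC class II molecules, secrete cytokines and chemokines, and differ in how much of each they do. Immediate early genes such as Fos and Egr1 encode transcription factors and regulators that are transcribed quickly, without new protein synthesis, after growth factors, cytokines, adhesion or mechanical and enzymatic handling of tissue.

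The cells of both stretches listed macrophage markers. At least 3 of 8 macrophage markers stood at RPKM of 1 or more (called listed below) in 66 of 69 cells (95.7%, exact binomial interval 87.8 to 99.1%) and in 56 of 56. The receptor Csf1r, through which macrophages receive their survival signal, was listed in 97.1% and 98.2% of cells. Of the genes behind the sort, Ptprc (CD45) was listed in 94.2% and 94.6%, Itgam (CD11b) in 84.1% and 78.6%, and Adgre1 (F4/80) in 88.4% and 94.6%. Apoe was listed in 2 of 69 and 7 of 56 cells. The median cell listed 2457 and 2515 genes, the median share of summed RPKM in ribosomal protein genes was 9.80% and 8.48%, and that in mitochondrial genes 6.42% and 7.80%. Depth could be estimated in 27 of 72 and 23 of 56 libraries, with medians of 1.05 M and 1.09 M reads. At least 1 Y-linked gene was listed in 50 of 69 and 43 of 56 cells, and Xist in none. All intervals are exact (Clopper-Pearson) 95% intervals and cover counting error only.

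The first stretch was not uniform. Nor was the second, in which the levels of Spp1, Lpl and Ccl4 were uneven along the library numbers, as given below. Ins2, the insulin gene of pancreatic beta cells, was listed in 0 of the 48 cells numbered 21 to 71, which allows a share of up to 6.25% (3 of 48 cells), and in 14 of the 21 cells numbered 72 to 92 (66.7%, interval 43.0 to 85.4%). It was listed in 15 of the 19 regression libraries 93 to 111 that follow directly, and in 0 of 56 cells numbered 112 to 167, which allows a share of up to 5.36% (3 of 56 cells). The exact intervals of these zero counts reach 7.40% and 6.38%. Its level in cells 72 to 92 was low: the median RPKM of the cells that listed it was 2.88 and the highest 13.4. In cells 93 to 111 the median was 9.51. In the other regression stretches Ins2 was listed in 1 of 20 cells numbered 1 to 20 and in 8 of 77 numbered 168 to 244 (10.4%). Ins1 and Iapp, also beta cell genes, were each listed in 1 of the 21 cells, and no baseline cell listed 3 of 8 islet markers. The summed level of that marker list, in log2(RPKM + 1), ran from 0 to 3.88 in cells 21 to 92 and from 0 to 0.52 in cells 112 to 167. Cells 72 to 92 also listed fewer genes (median 2110) than cells 21 to 71 (median 2662). At least 3 of 8 markers of nonclassical monocytes, the patrolling blood monocytes, were listed in 9 of those 21 cells (42.9%), in 7 of 48 (14.6%) and in 12 of the 56 cells numbered 112 to 167 (21.4%). The labels give no reason for a break at number 72, so cells 72 to 92 were treated as libraries that stand apart, and the counts over all genes, the gene lists with most calls and the leading genes are also given without them.

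**Figure D1:**
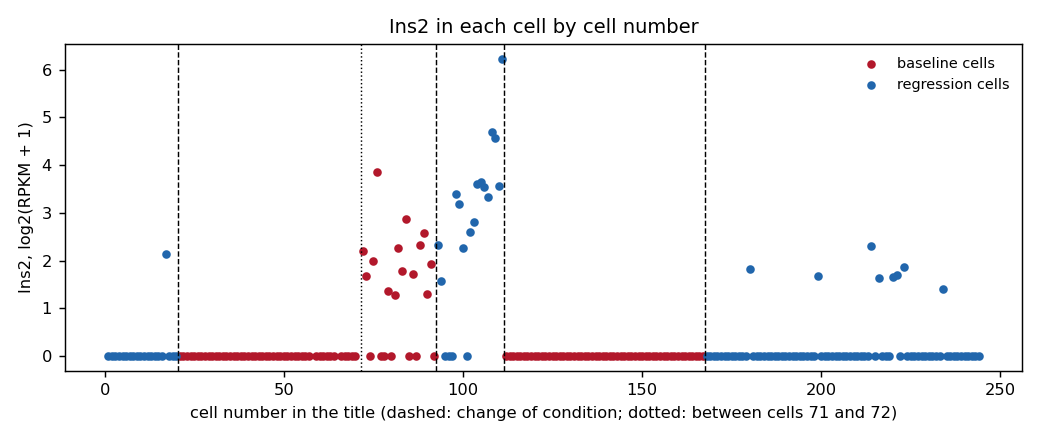
Ins2 level of each cell in log2(RPKM + 1) (vertical axis) against its library number (horizontal axis), with 1 point per cell. Ins2 is at 0 in every cell from 21 to 71 and from 112 to 167, and is listed at RPKM of 1 or more in 14 of the 21 cells from 72 to 92.

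A second difference in make-up concerned dendritic cells, which can pass the same sort when they carry CD11b and F4/80. At least 3 of 10 conventional dendritic cell markers were listed in 9 of 69 cells of the first stretch (13.0%, interval 6.14 to 23.3%) and in 1 of 56 of the second (1.79%, interval 0.0452 to 9.55%). The intervals overlap. All 9 cells of the first stretch had numbers from 21 to 71. The summed level of the list ran from 0 to 27.7 in cells 21 to 92 and from 0 to 25.6 in cells 112 to 167. In the first stretch Zbtb46, a transcription factor of that lineage, was the marker that no cell listed. Zbtb46 went the other way from the count of cells, as 2 of 56 cells of the second stretch listed it. In the second stretch Xcr1, Ccr7, Fscn1, Itgae and Dpp4 were listed in no cell. Ccr7, a homing receptor for lymph nodes, was found in 4 of 69 cells, all of them from 21 to 71, and in 0 of 56. Markers of T cells, B cells, neutrophils, smooth muscle, endothelium and fibroblasts are given with the other observations.

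By mean log2(RPKM + 1) the stretches were close across the genome, and a minority of genes differed by 1 or more. A gene was tested for size when 10% or more of the cells in either stretch listed it, which held for 7570 of 24475 genes. Differences are the mean log2(RPKM + 1) of cells 112 to 167 minus that of cells 21 to 92, so negative values mean a higher level in cells 21 to 92. A gene was called when this difference was at least 1 in size and the log2 ratio of mean RPKM had the same sign. By this rule 156 genes (2.06%) were higher in cells 112 to 167 and 152 genes (2.01%) were higher in cells 21 to 92, or 308 in all (4.07%). These shares hold for this scale, on which the pseudocount of 1 shrinks differences of low genes. By the log2 ratio of mean RPKM, 956 genes (12.6%) and 1602 genes (21.2%) reached 1 in these directions. With a pseudocount of 0.1 the counts were 532 and 493, and with a pseudocount of 10 they were 28 and 24. The median difference over all genes tested was -0.01, and the central 90% of genes lay between -0.76 and 0.77. A difference of at least 2 was found for 5 genes higher in cells 112 to 167 (0.0661%) and 4 higher in cells 21 to 92 (0.0528%). The share of cells that listed the gene was at least 25 percentage points higher in cells 112 to 167 for 37 genes (0.489%) and in cells 21 to 92 for 27 (0.357%). Calls depended on how widely a gene was detected: 0.0864% of the genes listed in 10 to 25% of cells were called, and 13.8% of those listed in 75 to 100%. Of the latter 756 genes, 51 were called higher in cells 112 to 167 and 53 in cells 21 to 92. The shares of all genes tested that stand beside the gene lists below are not matched for detection.

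**Figure D2:**
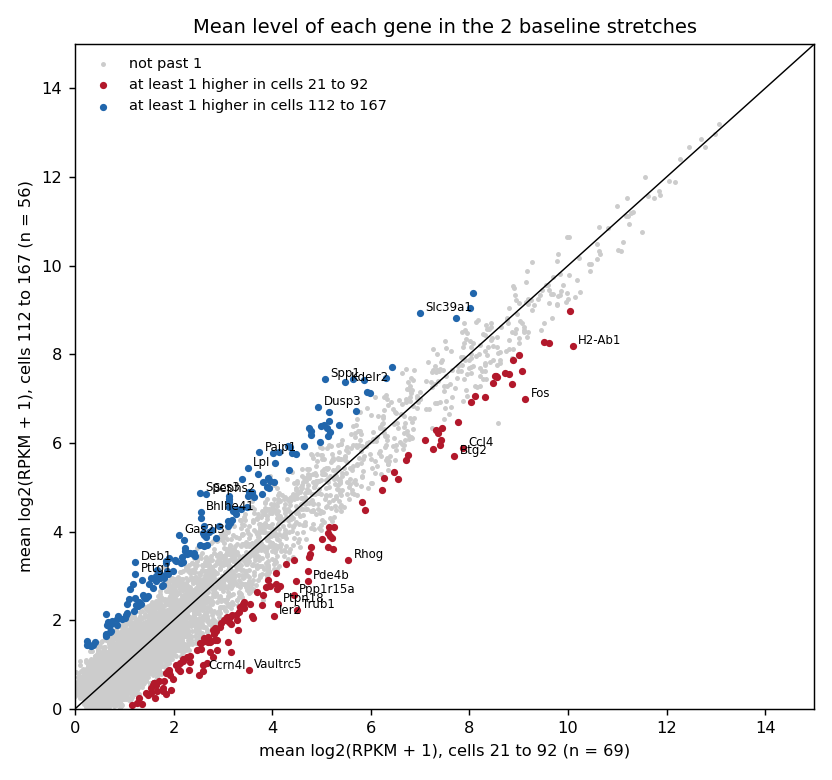
Mean log2(RPKM + 1) of each gene tested in cells 21 to 92 (horizontal axis) and in cells 112 to 167 (vertical axis), with 1 point per gene. Most of the 7570 genes lie near the diagonal, and the 308 called genes lie at least 1 log2 unit away from it.

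The size of these differences can be set beside the other pairings of stretches, with the same rule. Cells 21 to 92 and 112 to 167 had the lowest called share of the 10 pairings, 4.07%. Against the regression cells 168 to 244, the called share was 7.73% for cells 21 to 92 and 9.30% for cells 112 to 167. The pairings that include the short stretches of 20 and 18 regression cells (cells under 1000 listed genes left out) ran from 12.7 to 21.6%, and means over fewer cells scatter more. Within the first stretch, cells 21 to 71 against cells 72 to 92 gave 12.9%, with 48 and 21 cells. The 4.07% rests on 69 and 56 cells, so these shares cannot be ranked by size of difference. Cells 21 to 71 against cells 112 to 167 gave 6.12%, and cells 72 to 92 against cells 112 to 167 gave 11.6%. The pairings share cells, and their shares were not tested against each other.

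**Figure D3:**
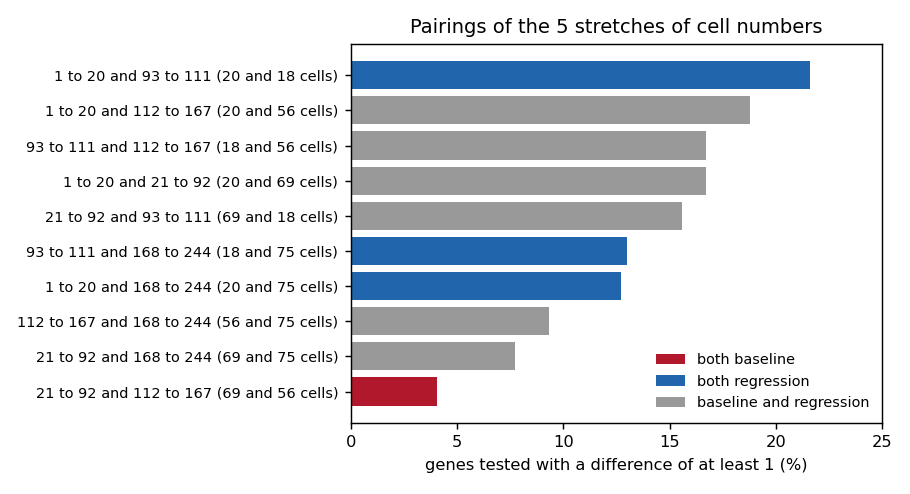
Percent of genes tested that differ by at least 1 in mean log2(RPKM + 1), for the 10 pairings of the 5 stretches of library numbers. The pairing within baseline, 21 to 92 with 112 to 167, stands at 4.07%, and the highest share, 21.6%, is that of the short regression stretches 1 to 20 and 93 to 111.

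Immediate early genes were the list with the most calls, and all of them were higher in cells 21 to 92. Of 23 members tested, 10 were called in that direction, against 2.01% of all genes tested, and 0 in the other. Among genes listed in 75 to 100% of cells, 53 of 756 were called higher in cells 21 to 92. The list's median difference was -0.81, against -0.01 for all genes tested. The 10 were Fos, Btg2, Ier2, Dusp1, Egr1, Jun, Atf3, Nr4a1, Zfp36 and Ier5. The remaining 13 lay between -0.87 (Ier3) and 0.22 (Klf6), with Fosb at -0.69, Junb at -0.81 and Myc at 0.02. Without cells 72 to 92, 11 of the 23 were called higher in the first stretch, against 4.27% of all genes tested. The median was then -0.91, against -0.11 for all genes tested. With the 10 cells of 3 or more dendritic markers left out, 10 of 22 were called and the median was -0.67.

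Fos encodes a subunit of the AP-1 transcription factor. Its level in cells 21 to 92 ran from 0 to 11.59 with a median of 9.63, and in cells 112 to 167 from 0 to 11.75 with a median of 7.79. The ranges overlapped almost fully, yet only 8 of 56 cells of the second stretch lay above the median of the first. The means were 9.14 ± 2.17 (SD over 69 cells) and 6.99 ± 3.02 (SD over 56 cells), a difference of -2.15. The share of cells that listed Fos was nearly the same, 98.6% and 96.4%, so the difference lay in the level of the cells that listed it: their median RPKM was 795 and 241. Cells 21 to 71 and 72 to 92 had like means for Fos, 9.10 and 9.22.

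Btg2, an antiproliferative gene induced by p53 and by growth factors, had a median of 8.78 in cells 21 to 92 (range 0 to 11.61) and 7.05 in cells 112 to 167 (range 0 to 11.04). It was listed in 66 of 69 cells (95.7%, interval 87.8 to 99.1%) and 47 of 56 (83.9%, interval 71.7 to 92.4%), and the difference of means was -1.99. Dusp1 encodes a phosphatase that switches off MAP kinases. Its lowest, median and highest levels were 4.83, 9.12 and 11.08 in cells 21 to 92, and 0, 7.84 and 10.46 in cells 112 to 167, and 9 of 56 cells of the second stretch exceeded the median of the first. Its means were 8.86 ± 1.46 and 7.33 ± 2.04, a difference of -1.53. Ier2, a small nuclear protein of the same response, differed also in how many cells listed it: 50 of 69 (72.5%, interval 60.4 to 82.5%) and 29 of 56 (51.8%, interval 38.0 to 65.3%), with a difference of -1.94.

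The other called members had smaller differences. Egr1, a zinc finger factor, had means of 4.15 and 2.78, a difference of -1.37. Jun, the partner of Fos in AP-1, had means of 4.75 and 3.41, a difference of -1.34. Atf3, a stress-induced factor of the same protein class, had a difference of -1.30. The nuclear receptor Nr4a1 had -1.27, Zfp36, which destabilises cytokine messages, -1.16, and Ier5 -1.13. Fos, Jun and Egr1 were listed together in 38 of 69 cells (55.1%, interval 42.6 to 67.1%) and 25 of 56 (44.6%, interval 31.3 to 58.5%). In the regression stretches, Fos had means of 9.05, 8.92 and 8.23, and Btg2 6.15, 4.79 and 3.29, so the regression stretches also differed among themselves.

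Another pair of called genes act in the same setting and stood among the 12 with the largest differences in that direction. Ppp1r15a, which lifts the block on translation after stress, was listed in 69.6% and 46.4% of cells, with a difference of -1.87. It overlaps another annotated gene, and reads of the pair may not be separable. Pde4b, which breaks down cyclic AMP, was listed in 78.3% and 55.4%, with a difference of -1.83.

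The promoters of the called immediate early genes were read for the cyclic AMP response element, the palindrome to which CREB and ATF proteins bind. RefSeq promoters (GRCm38.p6, 250 bases before to 50 after the start) were matched for 8 of the 10 called members (not Ier2 and Egr1) and 11 of the other 13. The 8 letters TGACGTCA, a palindrome and so the same on both strands, were found in 2 of 8 promoters of the called members (25.0%), in 0 of 15 promoters of the others, and in 588 of 32851 promoters of all genes (1.79%). Among promoters of the genes tested they were found in 243 of 7453 (3.26%). Among promoters of all genes called higher in cells 21 to 92 they were found in 7 of 169 (4.14%). The AP-1 letters TGAGTCA, the same run without its first C, were searched on both strands and found in 0 of the 8. A match is a run of letters and not a shown binding site. The 2 promoters with a match belong to Btg2 (minus strand, chr1:134079256-134079355) and Dusp1 (minus strand, chr17:26508573-26508672), and the 100 bases from 200 to 101 before the start are shown 5′ to 3′ with the 8 letters in capitals.
Btg2: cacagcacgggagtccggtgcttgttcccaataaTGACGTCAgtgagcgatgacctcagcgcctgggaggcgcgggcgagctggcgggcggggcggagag
Dusp1: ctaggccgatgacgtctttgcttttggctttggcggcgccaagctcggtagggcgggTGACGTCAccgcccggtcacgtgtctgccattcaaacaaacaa

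Among inflammatory cytokine genes and their regulators, 4 of 12 tested were called higher in cells 21 to 92 and 0 in the other direction, against 2.01% and 2.06% of all genes tested. The list median was -0.58, against -0.01 for all genes tested. Without cells 72 to 92 it was -0.63, against -0.11 for all genes tested, with 4 members called. With cells of at least 2000 genes it was -0.10 and 2 members were called. Under that filter 4 of the 12 had the higher mean in cells 112 to 167. Without cells that list Ins2, 1 member was called. The list median stayed negative under all 15 alternatives. Il1b, the secreted form of interleukin 1 that inflammasomes release, was listed in 42 of 69 cells (60.9%, interval 48.4 to 72.4%) and 27 of 56 (48.2%, interval 34.7 to 62.0%). Its levels ran from 0 to 11.90 with a median of 4.27, and from 0 to 10.64 with a median of 0.78, a difference of means of -1.61 (-1.83 without cells 72 to 92). Cxcl2, which recruits neutrophils, had a difference of -1.13, which was -0.66 without cells 72 to 92 and 0.11 when only cells with at least 2000 genes were kept. Tnfaip3 and Nfkbia, both inhibitors that NF-kappaB induces against itself, had -1.08 and -1.06. Tnf was listed in 42.0% and 44.6% of cells, with a difference of -0.95.

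Ccl4, a chemokine that draws monocytes and T cells, was the called member among 10 CC chemokines tested (list median -0.35). It had levels of 0 to 14.37 with a median of 9.67 in cells 21 to 92 and of 0 to 13.10 with a median of 7.19 in cells 112 to 167. The shares of cells that listed it were 84.1% and 71.4%, and the difference was -1.98. The high mean was that of cells 21 to 71, at 8.69, while cells 72 to 92 had 5.97 and cells 112 to 167 had 5.89. Against cells 21 to 71 the difference was -2.81 and against cells 72 to 92 it was -0.08. Cells 112 to 167 were uneven too: a Ccl4 level of 0 was more frequent in cells 112 to 133 than in cells 134 to 167. The highest levels of these blocks were alike, 13.10 (cell 119) and 12.37 (cell 149). Ccl3, encoded beside Ccl4 and often induced with it, had a difference of -0.20, and Ccl2, the ligand of the monocyte receptor Ccr2, -0.34. Ccr2 itself was called higher in cells 21 to 92, with a difference of -1.14. With cells of at least 2000 genes the CC chemokine list median was 0.22, with 6 of 10 members higher in cells 112 to 167.

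**Figure D4:**
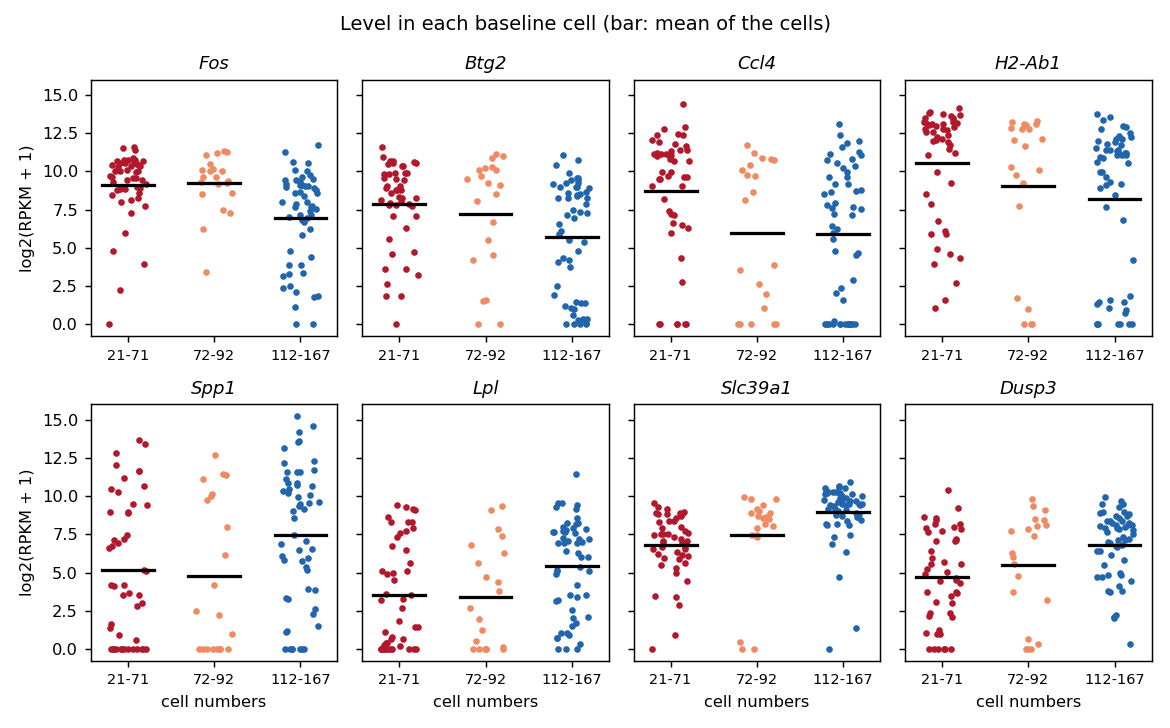
Level in log2(RPKM + 1) of 8 genes in each cell of 3 blocks of library numbers (21 to 71, 72 to 92 and 112 to 167), with 1 point per cell. Levels overlap in all 8 genes. The Fos means are 9.10, 9.22 and 6.99, while the Ccl4 means are 8.69, 5.97 and 5.89.

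Several genes of MHC class II presentation were higher in cells 21 to 92. Of 12 tested, 11 had the higher mean in cells 21 to 92, as 51.5% of all genes tested did. Among the 12, 4 were called in that direction and 1 in the other, against 2.01% and 2.06% of all genes tested, and the list median was -0.56. The beta chain gene H2-Ab1 had levels of 0 to 14.16 with a median of 12.10 in cells 21 to 92, and of 0 to 13.76 with a median of 10.77 in cells 112 to 167. Only 11 of 56 cells of the second stretch lay above the median of the first. It was listed in 66 of 69 cells and in 47 of 56 (83.9%, interval 71.7 to 92.4%), and the difference of means was -1.90. H2-DMb1, a chain of the exchange factor that loads peptides, was listed in 68.1% and 48.2% of cells, with a difference of -1.63. H2-Eb1 and H2-Aa, a further beta and an alpha chain, had differences of -1.46 and -1.06.

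The class II difference was uneven within the first stretch. Against cells 21 to 71 the differences of H2-Ab1, H2-DMb1, H2-Eb1 and H2-Aa were -2.36, -2.28, -1.96 and -1.47. Against cells 72 to 92 they were -0.85, -0.15, -0.33 and -0.11. Cd74, the invariant chain that escorts class II molecules, was the most abundant of the group and had means of 11.22 and 11.13. The dendritic-marked cells lay in the same numbers 21 to 71. Without the 10 cells with 3 or more dendritic markers, 3 of 12 class II genes were called higher in cells 21 to 92, H2-Ab1 had -1.62 and the list median was -0.42. Cd86, a costimulatory ligand for T cells, went the other way: it was listed in 66.7% and 82.1% of cells, with a difference of 1.18, which was 0.68 against cells 21 to 71 alone. Among 11 genes of class I presentation, 9 had the higher mean in cells 21 to 92, as 51.5% of all genes tested did. H2-T23, a nonclassical class I gene, was called, with a difference of -1.06. The list median was -0.41. Without cells 72 to 92, 4 of the 11 were called in that direction, against 4.27% of all genes tested. The median was then -0.78, against -0.11 for all genes tested. Without the dendritic-marked cells H2-T23 had -0.72, under the size for a call, and 0 of the 11 were called.

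Of 16 lipid-laden macrophage genes tested, 1 was called higher in cells 21 to 92 and 3 in cells 112 to 167. Of all genes tested, 2.01% and 2.06% were called in these directions. Spp1, which encodes the secreted matrix protein osteopontin, had the largest difference of all named genes toward cells 112 to 167. Its levels ran from 0 to 13.65 with a median of 4.17 in cells 21 to 92 and from 0 to 15.23 with a median of 8.81 in cells 112 to 167. It was listed in 45 of 69 cells (65.2%, interval 52.8 to 76.3%) and 49 of 56 (87.5%, interval 75.9 to 94.8%), and the means of 5.07 ± 4.66 and 7.44 ± 4.54 (SD over cells) differed by 2.37. Spp1 overlaps another annotated gene on the same strand. Within cells 112 to 167 the Spp1 levels were uneven by library number. In cells 112 to 133 the highest were 10.06 (cell 122) and 7.07 (cell 127). In cells 134 to 167 the lowest were 1.15 (cell 163) and 5.36 (cell 144). The higher mean of the second stretch thus came from cells 134 to 167. This break was seen in the values, and its cause was not tested.

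Lpl, the lipase that frees fatty acids from lipoproteins, was listed in 42 of 69 cells (60.9%, interval 48.4 to 72.4%) and 49 of 56 (87.5%, interval 75.9 to 94.8%). Its levels ran from 0 to 9.40 with a median of 2.71 and from 0 to 11.42 with a median of 6.35, a difference of means of 1.93. Both genes together were listed in 26 of 69 cells (37.7%, interval 26.3 to 50.2%) and 45 of 56 (80.4%, interval 67.6 to 89.8%). The pair was chosen after its values were seen.

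Cd36, the scavenger receptor, was listed in 59.4% and 67.9% of cells, with a difference of 1.20. Its mean was 2.51 in cells 21 to 71, 3.86 in cells 72 to 92 and 4.12 in cells 112 to 167. Spp1 and Lpl did not show that split: their means were 5.19 and 3.54 in cells 21 to 71, and 4.78 and 3.42 in cells 72 to 92. The rest of the lipid-laden list did not move with them. Of 16 members tested, 8 had the higher mean in each stretch and the list median was 0.03. Trem2, a lipid receptor of foam cells, had a difference of 0.57 and the glycoprotein gene Gpnmb -0.06. Ctsd, a lysosomal protease, was called higher in cells 21 to 92, with a difference of -1.02, which was -0.26 with cells of at least 2000 genes and -0.19 by the log2 ratio of mean RPKM. No member of the cholesterol efflux list was called; Abcg1 and Abca1, the exporters, had 0.80 and 0.53. Insig1, which restrains cholesterol synthesis, was called higher in cells 112 to 167, with a difference of 1.08.

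**Figure D5:**
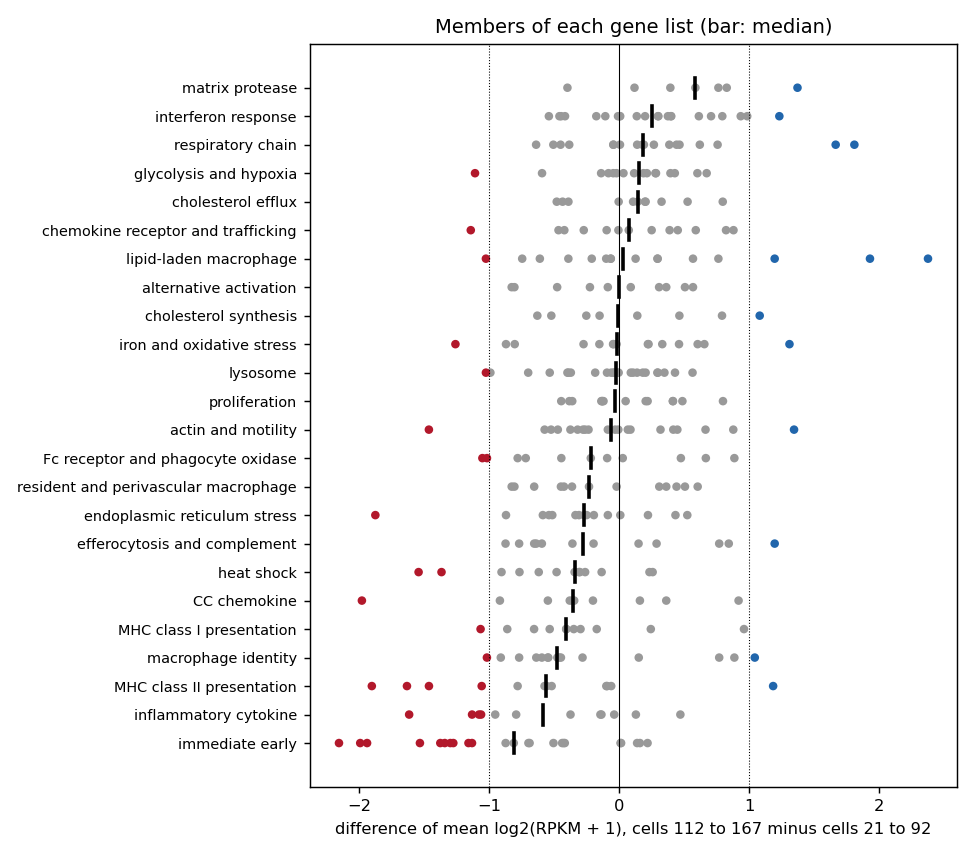
Difference of mean log2(RPKM + 1), cells 112 to 167 minus cells 21 to 92, for the members of each gene list (1 point per gene tested). The immediate early list lies mostly below 0 (median -0.81), while the lipid-laden list is spread around 0 (median 0.03) with Spp1 and Lpl at its upper end.

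Other genes with the largest differences belonged to no single list. Slc39a1, a zinc importer of the plasma membrane, was detected in nearly every cell. Its levels ran from 0 to 9.96 with a median of 7.53 in cells 21 to 92 and from 0 to 10.91 with a median of 9.49 in cells 112 to 167. Of the first 69 cells, 4 lay above the median of the second stretch, and 49 of the 56 lay above the median of the first. Slc39a1 was listed in 92.8% and 98.2% of cells, and the difference was 1.94. Slc39a1 was higher in cells 112 to 167 than in either block of the first stretch: the means were 6.80, 7.44 and 8.94 in cells 21 to 71, 72 to 92 and 112 to 167. In the regression stretches its means were 6.61, 9.47 and 8.21.

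The other genes of the 12 with the largest differences in this direction have varied known roles. Spcs3, a subunit of the signal peptidase, was listed in 39.1% and 66.1% of cells, with a difference of 2.33. Kdelr2, the receptor that returns resident proteins to the endoplasmic reticulum, was listed in 78.3% and 91.1%, with a difference of 1.89. Sephs2, which makes the selenium donor for selenoproteins, had 2.18, and Paip1, a partner of the poly(A)-binding protein, had 2.05. Dusp3, a dual-specificity phosphatase, was listed in 81.2% and 98.2% of cells, with a difference of 1.89. The transcriptional repressor gene Bhlhe41 had 1.90, the securin gene Pttg1 1.83, Gas2l3, which links actin and microtubules, 1.82, and Deb1 2.10. Spcs3, Sephs2, Dusp3 and Bhlhe41 overlap other annotated genes, and the sources do not say whether the counting used strand.

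In the other direction, the largest difference of any named gene was that of Vaultrc5, a small vault RNA of 143 bases. It was listed in 42 of 69 cells (60.9%, interval 48.4 to 72.4%) and in 11 of 56 (19.6%, interval 10.2 to 32.4%), with medians of 3.84 and 0, and the difference was -2.65. Both blocks of the first stretch showed it, with means of 3.54 and 3.47, and the regression stretches had means of 2.48, 1.05 and 1.05. RPKM divides by length, so 1 read weighs more in so short a gene than in any other named here. Trub1, a pseudouridine synthase gene, was listed in 73.9% and 37.5%, with a difference of -2.27. Rhog, a small GTPase of membrane ruffling, was listed in 76.8% and 60.7%, with -2.19. Ptpn18, a tyrosine phosphatase, had -1.74 and Ccrn4l, a circadian deadenylase, -1.73. Trub1 and Ptpn18 overlap other annotated genes.

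Smaller groups had 1 or 2 calls each. The called share was 15.4% of heat shock, 11.1% of respiratory chain and 4.55% of interferon response genes tested. It was 4.07% of all genes tested, and 13.8% of those listed in 75 to 100% of cells. The inducible heat shock genes Hspa1a and Hspa1b were higher in cells 21 to 92, at -1.54 and -1.36 (-1.87 and -1.93 without cells 72 to 92). These near-identical copies can share reads, so they were also counted together: either was listed in 25 of 69 cells (36.2%, interval 25.0 to 48.7%) and 10 of 56 (17.9%, interval 8.91 to 30.4%). The remaining 11 tested heat shock genes were not called, and the list median was -0.34. Of 18 nuclear genes of the respiratory chain, Cox7c and Cox5a, subunits of cytochrome c oxidase, were higher in cells 112 to 167, at 1.81 and 1.66, with a list median of 0.19. Without cells 72 to 92 the same list had a median of -0.18, against -0.11 for all genes tested. Cox7c and Cox5a then had 1.02 and 1.35. Of 22 interferon response genes, 15 had the higher mean in cells 112 to 167, as 48.5% of all genes tested did, and Ifi204, a DNA sensor, was called, at 1.23. Without cells 72 to 92, 12 of the 22 had the higher mean in cells 112 to 167, and the list median went from 0.25 to 0.08. The median of all genes tested went from -0.01 to -0.11. Irf7, the interferon regulator, was listed in 7 of 69 cells (10.1%, interval 4.18 to 19.8%) and 17 of 56 (30.4%, interval 18.8 to 44.1%), at 0.98.

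Of 15 macrophage identity genes tested, 11 had the higher mean in cells 21 to 92, as 51.5% of all genes tested did. The list median was -0.47, against -0.01 for all genes tested. It was negative under all 15 alternatives, from -0.68 to -0.03. With cells of at least 2000 genes it was -0.04, and 7 of the 15 had the higher mean in cells 112 to 167. Without cells 72 to 92 it was -0.51, against -0.11 for all genes tested. Then 3 members were called higher in the first stretch and 0 in the second, against 4.27% and 1.85% of all genes tested. Over all cells 13.3% of the list was called, near the 13.8% of all genes listed in 75 to 100% of cells. Cd68, a lysosomal membrane protein, was called higher in cells 112 to 167, at 1.04 (0.59 against cells 21 to 71 alone), and reached 1 under 6 of 15 alternatives. Cd14, the lipopolysaccharide co-receptor, was called higher in cells 21 to 92, at -1.02. With cells of at least 2000 genes only, Cd14 had -0.04. Fcgr3 and Ncf1, an Fc receptor and a subunit of the phagocyte oxidase, were called in the same direction as Cd14, at -1.02 and -1.05, and stayed at least 1 in size under 9 and 8 of 15 alternatives. The protease gene Adam10 had 1.37. Prdx1, a peroxidase, had 1.31 (0.95 against cells 21 to 71) and Mt1, a metallothionein, -1.26, both in the list of iron and oxidative stress. The actin genes Capg and Coro1a had 1.34 and -1.46. By the log2 ratio of mean RPKM Capg had 0.11, and with cells of at least 2000 genes Coro1a had -0.76, Mt1 -0.89 and Pfkp -0.51. The glycolytic gene Pfkp had -1.11 over all cells. No member of the proliferation, alternative activation or resident macrophage lists was called.

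All 24 genes with the largest differences, 12 in each direction, kept their direction when cells 72 to 92 were left out. Spp1 then had 2.25, Lpl 1.89, Fos -2.12, Btg2 -2.19 and H2-Ab1 -2.36. The balance of calls over the whole genome did not keep its proportion: without those cells, 144 genes were called higher in cells 112 to 167 and 332 higher in cells 21 to 71, and the median of all genes tested moved to -0.11.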

How the data were processed

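RPKM values (reads scaled to transcript length and library size) were deposited by the authors as 1 table, whose name gives the unit, for 24475 genes and 244 libraries, beside a deposited gene annotation table. Per the submitters' processing notes, CASAVA 1.8.2, FastQC and the mm10 build were used. Which aligner, annotation and counting program served was not given in the sources used here. Columns were matched to samples by the number in each title. RPKM was compared as log2(RPKM + 1), a pseudocount of 1 that understates differences of low genes, and as the share of cells at RPKM of 1 or more. RPKM is no count, so no count model was fitted, and with 1 sample per stretch no test was made. SDs are spreads over cells. All 125 cells had at least 1000 listed genes. Depth was estimated from the spacing of low values, where 1 read is the smallest step. Doublets were not called. The analysis used Python 3.11.15, numpy 2.4.6, pandas 2.3.3, scipy 1.17.1 and matplotlib 3.10.9, and the method was tested on simulated data.

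The members and the gene lists were chosen with earlier results of these data known. Named genes are the 12 with the largest difference in each direction among genes listed in at least 25% of cells of a stretch, list members by a fixed rule, and genes fixed by name. Other list members are examples chosen after their values were seen. Promoters come from RefSeq (GRCm38.p6) and gene overlaps from GENCODE vM21 on GRCm38, the assembly that mm10 names. The alternatives were another scaling, pseudocount, filter, fold and set of cells. Leaving out cells 72 to 92, cells that list Ins2 or Apoe, and cells with dendritic markers was chosen after seeing the data.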

Additional observations from a re-analysis of the deposited data

How the results depend on the processing

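No paired analysis was possible because the stretches share no replicate numbers and each is 1 sample. The count of genes higher in cells 112 to 167 was 156. It was 242 with each cell rescaled to a sum of 1000000, 532 and 28 with pseudocounts of 0.1 and 10, 416 with cells of at least 2000 genes, 956 by the log2 ratio of mean RPKM and 5 at a difference of 2. The count higher in cells 21 to 92 was 152. It was 493 and 24 with pseudocounts of 0.1 and 10, 1602 by the log2 ratio of mean RPKM, 4 at a difference of 2 and 332 without cells 72 to 92. The balance of the directions thus moved with cells of at least 2000 genes (416 and 159), with the ratio of mean RPKM, which shifted the median of all genes tested to -0.17, and without cells 72 to 92 (144 and 332). Cxcl2 reversed, to 0.11, with cells of at least 2000 genes. The cause of these changes was not tested. The immediate early list kept a negative median under all 15 alternatives, from -1.21 to -0.43, and had 0 members called the other way. Depth is known in 50 of 128 libraries, so an equal depth of the stretches was not shown.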

Other observations

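Markers of other cell types were also counted. At least 3 markers of classical monocytes, the Ly6C-high cells from blood, were listed in 14 of 69 cells (20.3%, interval 11.6 to 31.7%) and 14 of 56 (25.0%, interval 14.4 to 38.4%). For neutrophils the counts were 2 of 69 and 3 of 56, for plasmacytoid dendritic cells 2 of 69 and 1 of 56, for T cells 1 of 69 and 0 of 56, and for fibroblasts 1 of 69 and 1 of 56. No cell reached 3 markers of B cells, NK cells, mast cells, smooth muscle, endothelium, adipocytes, red cells and platelets or islets. Of 24 lysosome genes tested, Ctsd was called, and the list median was -0.02. Without cells 72 to 92, 17 of the 24 had the higher mean in the first stretch. The median was then -0.21, against -0.11 for all genes tested. In that direction 4 of the 24 were called, against 4.27% of all genes tested. With cells of at least 2000 genes, Ctsd was not called and the median was 0.06, as for all genes tested. Under that filter 2 other members were called higher in cells 112 to 167, against 5.33% of all genes tested. In the endoplasmic reticulum stress list Ppp1r15a was the called member among 15 tested, with a list median of -0.27. Of 7 matrix protease genes tested, 6 had the higher mean in cells 112 to 167, as 48.5% of all genes tested did. Adam10 was called, and the list median was 0.59.

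Zbp1, a sensor of nucleic acids that interferons induce, was listed in 7 of 69 cells (10.1%) and 23 of 56 (41.1%), a difference of 0.94 that did not reach the size for a call. It was singled out after its values were seen. Neo, a resistance gene used to make knockout alleles, was listed in 1 of 69 and 4 of 56 cells. Genes called higher in cells 21 to 92 had a median longest transcript of 2620 bases and a median GC content of 51.0%, those called higher in cells 112 to 167 had 3025 bases and 47.1%, and all genes tested had 3353 bases and 48.7%. On chromosome 6, 14 of 372 genes tested were higher in cells 112 to 167 and 3 in cells 21 to 92. On chromosome 7, 3 of 531 were higher in cells 112 to 167 and 12 in cells 21 to 92. Of all genes tested, 2.06% and 2.01% were called in these directions. Chromosomes 6 and 7 were singled out for their uneven counts. The transcript lengths and the chromosome counts are descriptions, and their part in the differences was not tested.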
